A study of Mus musculus with 16 samples.

Results

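The genes described here are 10 parts of the circadian clock and its output in the mouse: Per1, Per2, Per3, Cry1, Cry2, Nr1d2, Dbp, Tef, Hlf and Nfil3. They were taken as every probe set that carries 1 of these gene symbols in the platform annotation, which gave 22 of the 45037 probe sets of an Affymetrix Mouse Genome 430 2.0 array, after its 64 control probe sets were set aside. Of these, 20 passed a filter on low intensity, and every one of the 10 genes kept at least 1 of them. Both probe sets that did not pass belong to Per3.

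Hippocampal RNA was measured on 16 arrays, each holding a pool of 3 to 4 C57BL/6J mice of 1 age, sex and genotype. VP16-CREB mice carried tetO-VP16-CREB, a form of the transcription factor CREB with a viral activation domain that is switched on when doxycycline (dox) is withdrawn. There were 3 pools of VP16-CREB mice at 3 weeks off dox and 3 of control littermates (6 weeks old), and 2 pools of VP16-CREB mice at 1 week off dox and 2 of control littermates (3 weeks old). A-CREB mice carried TetO-A-CREB-95, a dominant-negative protein that dimerises with CREB and blocks its DNA binding. They were raised without dox, and 3 pools of them and 3 of control littermates were taken at 6 weeks of age. The controls are labelled WT and went through the same dox schedule as their littermates. The driver of the tetO transgenes and the time of day at which tissue was taken, on which clock transcripts depend, are not given in the sources used here.

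The mammalian clock is a loop in which CLOCK and BMAL1 (encoded by Arntl) activate the Per and Cry genes through E-box sequences, and the PER and CRY proteins then block that activation. CREB links signals from outside to this loop, because CRE sequences near Per1 and Per2 let it raise their transcription. A further loop runs through a sequence called the D-box, where the PAR bZIP factors DBP, TEF and HLF activate and NFIL3 represses the same genes. Mice without the PAR bZIP factors are prone to seizures, and in rat sensory neurons NFIL3 holds back CREB-driven transcription.

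The 250 bases before an annotated transcription start were available for 9 of the 10 genes in RefSeq (GRCm38.p6), with 2 starts each for Per1 and Tef. Per2 had no entry. The Nfil3 window and both Per1 windows lie inside the gene spans given below. For these genes the sequence before the outer end of the span was therefore not searched. The windows of Nfil3 and Hlf are shown because these genes were called, those of both Per1 starts because Per1 is a known CREB target, and that of Per3 for its D-box letters. Capitals mark matches on either strand to the CRE TGACGTCA, its core TGACG, which reads CGTCA when it lies on the opposite strand (each full CRE also counts as 2 cores), the E-box CACGTG and the D-box, searched as TTATGTAA and TTACGTAA.

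Hlf, chr11:90390918-90391167, minus strand: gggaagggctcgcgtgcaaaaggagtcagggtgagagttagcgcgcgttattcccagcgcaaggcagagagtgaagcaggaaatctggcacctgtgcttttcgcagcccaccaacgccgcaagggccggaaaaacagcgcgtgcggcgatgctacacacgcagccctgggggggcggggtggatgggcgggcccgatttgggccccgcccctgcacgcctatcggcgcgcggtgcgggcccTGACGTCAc

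Nfil3, chr13:52981040-52981289, minus strand: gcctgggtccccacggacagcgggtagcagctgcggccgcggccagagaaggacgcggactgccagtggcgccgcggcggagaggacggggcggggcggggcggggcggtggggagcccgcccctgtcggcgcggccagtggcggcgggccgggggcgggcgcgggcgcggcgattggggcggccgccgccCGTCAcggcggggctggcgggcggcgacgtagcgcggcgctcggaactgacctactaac

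Per1, upstream start, chr11:69098699-69098948, plus strand: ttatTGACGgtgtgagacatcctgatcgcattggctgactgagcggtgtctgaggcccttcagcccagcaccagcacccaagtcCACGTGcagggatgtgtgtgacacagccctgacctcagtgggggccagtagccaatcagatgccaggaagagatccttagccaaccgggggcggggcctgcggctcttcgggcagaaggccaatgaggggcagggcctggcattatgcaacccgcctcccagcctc

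Per1, downstream start, chr11:69099902-69100151, plus strand: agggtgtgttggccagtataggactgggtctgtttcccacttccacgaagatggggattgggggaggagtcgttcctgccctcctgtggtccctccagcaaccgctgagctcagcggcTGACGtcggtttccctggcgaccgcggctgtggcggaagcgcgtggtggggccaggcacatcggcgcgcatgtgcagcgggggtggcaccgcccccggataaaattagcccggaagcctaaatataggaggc

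Per3, chr4:151044666-151044915, minus strand: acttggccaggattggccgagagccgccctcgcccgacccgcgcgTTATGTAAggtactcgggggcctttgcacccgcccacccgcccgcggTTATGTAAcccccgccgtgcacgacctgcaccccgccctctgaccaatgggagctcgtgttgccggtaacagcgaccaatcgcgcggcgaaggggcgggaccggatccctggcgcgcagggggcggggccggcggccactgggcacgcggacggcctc

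Among the 9 genes, the full CRE stood only in the window of Hlf, 9 to 2 bases before the start, and it is found in 1.55% of the 32851 windows of the table. The core, in 17.8% of windows, occurred in Nfil3, Hlf, Cry1, Cry2 and at both Per1 starts. The E-box, in 6.02% of windows, occurred in Cry1, at the upstream Per1 start and at both Tef starts. The D-box with T, in 0.819% of windows, occurred 2 times in Per3 and in no other window of these genes, and the form with C (0.113% of windows) in none. Dbp and Nr1d2 held none of these letters in the window. A match describes the sequence and does not show that a factor binds.

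Nfil3 (chromosome 13, 52967209 to 52982878) was the only one of these genes called higher at 3 weeks off dox among probe sets past the filter. Its intensity, on the linear MAS5 scale, was 498, 402 and 524 in the VP16-CREB pools, against 101, 77.2 and 162 in their control littermates. Every VP16-CREB pool lay above every control pool, and the means were 475 ± 64.2 and 114 ± 43.7 (SD, n = 3 each). The difference in log2 of intensity plus 10 was 2.02 (SE 0.29, a 4.06-fold rise, limma adjusted p = 0.000829). Its 95% interval was 1.40 to 2.64. In 17 alternative settings, arrays left out included, it stayed called, with log2 differences of 1.80 to 2.29.

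At 1 week off dox Nfil3 measured 424 and 470 in the VP16-CREB pools, against 286 and 232 in controls. The pools again did not overlap, but the difference of 0.77 log2 (SE 0.35, interval 0.01 to 1.53) was not called (limma adjusted p = 0.935). As deposited, the Nfil3 intensities of the VP16-CREB pools overlapped between the times, at 402 to 524 at 3 weeks and 424 to 470 at 1 week. The VP16-CREB groups were not tested against each other, and their arrays differed in median intensity, at 127 to 129 and 81.3 to 93.2. The controls did not overlap, at 77.2 to 162 in the 6-week-old mice of the 3 week cohort and 232 to 286 in the 3-week-old mice of the 1 week cohort. That difference between control groups was called (log2 -1.17, SE 0.32, limma adjusted p = 0.0217), and its call was lost in 5 alternatives, the omission of any 1 of 4 of the 5 control pools among them (adjusted p of 0.0503 to 0.171). Against the A-CREB controls, which were also 6 weeks old, the 3 week controls stood at -0.82 log2 (SE 0.29, limma adjusted p = 0.0671), with overlap. The effect at 3 weeks exceeded that at 1 week by 1.25 log2 (SE 0.46, unadjusted p = 0.016), which was not called over all probe sets (limma adjusted p = 0.804).

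In A-CREB mice Nfil3 measured 209, 116 and 243, against 235, 147 and 230 in controls, and the groups overlapped. The log2 difference was -0.14 (SE 0.29, interval -0.76 to 0.48, limma adjusted p = 0.9997). The effect of VP16-CREB at 3 weeks was 2.16 log2 above that of A-CREB (SE 0.41, limma adjusted p = 0.0231). The call was lost in 9 of 25 alternatives (adjusted p of 0.0501 to 0.0845). These were no filter, only the arrays compared, the A-CREB cohort without its pools numbered 3, and the omission of VP16-CREB replicate 1 or 3 or of replicate 1 or 2 of their controls or 1 or 3 of the A-CREB controls. This was 1 of 20 member probe sets called for a difference between both lines, where 0.887% of all probe sets were called.

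**Figure D1:**
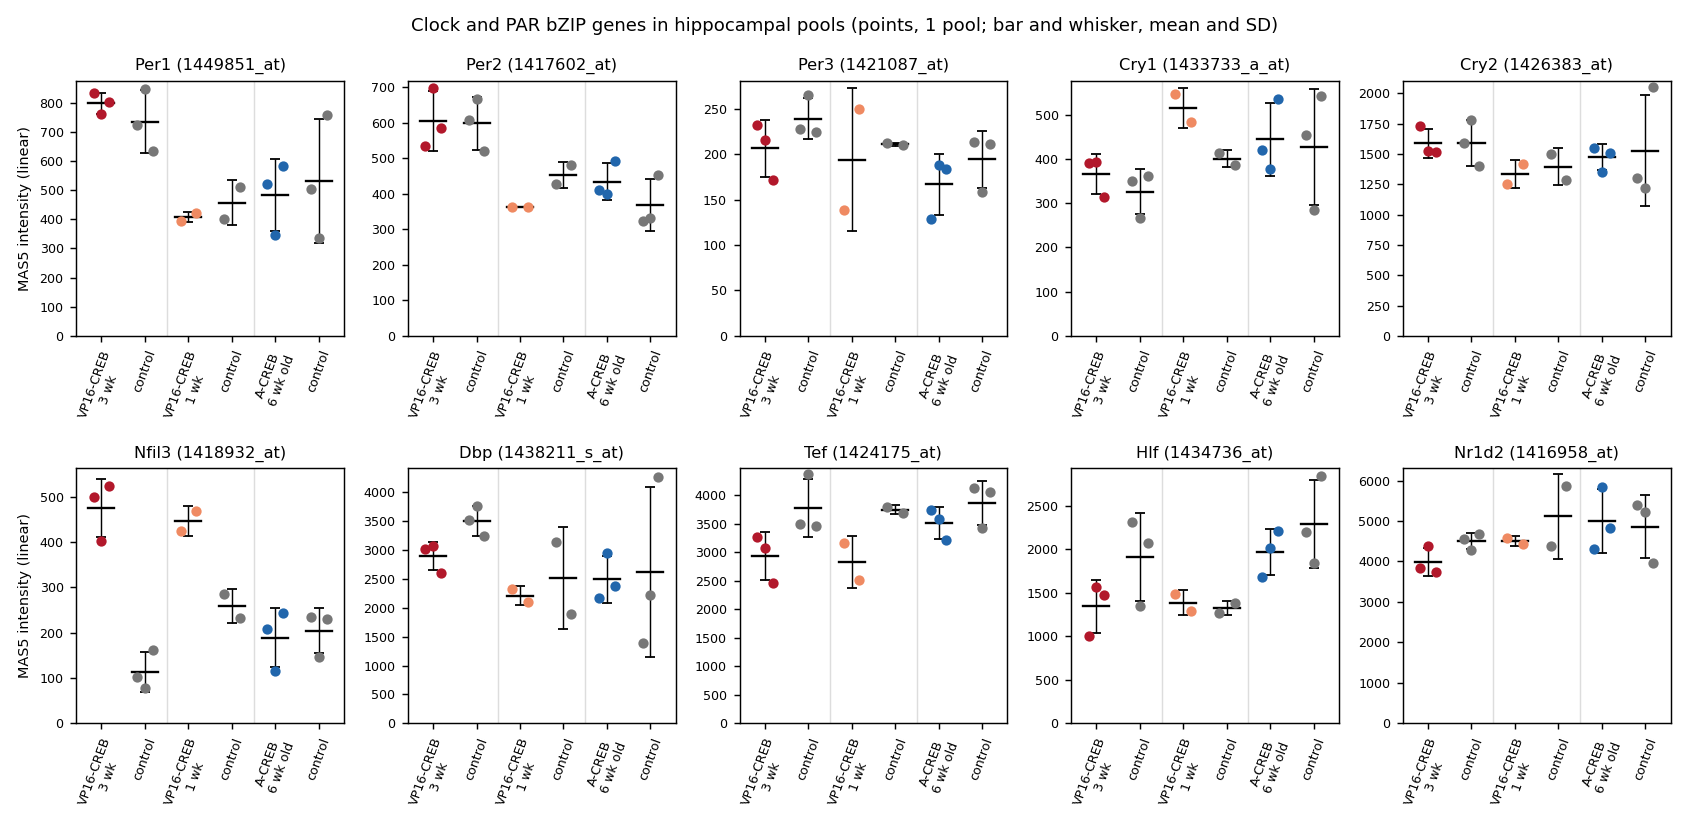
MAS5 intensity (linear, vertical axis) of the probe set of highest mean for each of the 10 genes in every pool of the 6 groups; points are pools, bars the mean and whiskers the SD. Nfil3 is high in both VP16-CREB groups (402 to 524), while its controls range from 77.2 to 286.

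Of the PAR bZIP genes, whose products share the D-box with NFIL3, only Hlf was called in a transgene comparison, at 1 probe set. Hlf (chromosome 11, 90336535 to 90390917) has 2 probe sets. At the one called, 1434735_at, intensity was 808, 922 and 786 in the VP16-CREB pools at 3 weeks, against 1273, 1324 and 1254 in controls. All 3 VP16-CREB pools lay below all controls, and the transcript fell by 0.61 log2 (SE 0.14, limma adjusted p = 0.0212). At the other, 1434736_at, VP16-CREB pools measured 998, 1561 and 1469, against 2310, 1345 and 2076 in controls. These overlapped, and the log2 difference of -0.50 (SE 0.23, limma adjusted p = 0.385) was not called, although array weights gave a call (adjusted p = 0.0284).

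The call of Hlf was close to the threshold. It was lost without VP16-CREB replicate 1 (adjusted p = 0.0718) or 3 (adjusted p = 0.113), and without control replicate 1 (0.0779), 2 (0.0836) or 3 (0.0666). It was lost without the filter too (0.0702) and with a block for the replicate number (0.0606), while the log2 difference stayed between -0.63 and -0.57 in these fits.

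Hlf at 1434735_at was 1327 and 1004 in the VP16-CREB pools at 1 week, against 1303 and 1327 in controls, and the groups overlapped. In A-CREB mice it was 1030, 1160 and 1185, against 1380, 1327 and 1516 in controls, so that all A-CREB pools lay below all controls. The log2 difference was -0.32 (SE 0.14, unadjusted p = 0.0344), which did not pass over all probe sets (limma adjusted p = 0.9997). This was the only member probe set without overlap in that comparison, where 3.28% of all probe sets lay wholly lower and 3.54% wholly higher. For Hlf, the A-CREB effect subtracted from the 3 week VP16-CREB effect left -0.29 log2 (SE 0.19, interval -0.71 to 0.13, limma adjusted p = 0.789).

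Tef (chromosome 15, 81802673 to 81826863) was measured by 3 probe sets, none called. At the brightest, 1424175_at, VP16-CREB pools at 3 weeks had 3273, 3072 and 2457, against 3491, 4367 and 3457 in controls. At 1 week they had 3152 and 2509, against 3799 and 3686. The groups did not overlap at either time, with log2 differences of -0.36 (SE 0.16, limma adjusted p = 0.331) and -0.41 (SE 0.20, adjusted p = 0.963). Of all probe sets, 12.8% at 3 weeks and 12.9% at 1 week lay wholly lower in this way. In A-CREB mice Tef was 3741, 3586 and 3205, against 4127, 3424 and 4051 (log2 -0.14, SE 0.16).

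Dbp (chromosome 7, 45705100 to 45710203), the PAR bZIP gene known for the strongest daily rhythm, was not called at either probe set in any transgene comparison. At 1438211_s_at the VP16-CREB pools at 3 weeks had 3018, 3062 and 2611, against 3513, 3765 and 3246, without overlap (log2 -0.28, SE 0.31). At 1418174_at they overlapped, with 1723, 1543 and 1420 against 1548, 1701 and 1552 (log2 -0.04, SE 0.33). The A-CREB controls spread widely at 1438211_s_at, from 1387 to 4259, around A-CREB pools of 2162 to 2948. With that spread the interval of the A-CREB difference reached from -0.61 to 0.74 log2.

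Per1 (chromosome 11, 69095108 to 69109965) and Per2 (chromosome 1, 91415977 to 91459351), the period genes with CREs, were not called in either line. Per1 was 832, 761 and 802 in the VP16-CREB pools at 3 weeks, against 722, 848 and 633 in controls. The log2 difference was 0.13, with an interval of -0.43 to 0.68, so a rise of Per1 as large as that of Nfil3 lay outside it. At 1 week Per1 was 394 and 420, against 402 and 511 (log2 -0.15, SE 0.32). Per2 at its brightest probe set, 1417602_at, was 534, 698 and 585 at 3 weeks, against 610, 668 and 520 (log2 0.01, interval -0.35 to 0.37). At 1 week Per2 there was 364 and 363, against 427 and 480 (log2 -0.31, SE 0.21), while a dimmer Per2 probe set, 1457350_at, read 81.1 and 84.5 against 11.97 and 46.8 (log2 1.39, SE 0.50, limma adjusted p = 0.629). These 2 Per2 probe sets gave opposite signs at 1 week, the third Per2 probe set stood at 0.08 log2, and none was called. In A-CREB mice the log2 difference of Per1 was -0.09 (SE 0.26) and that of Per2 at 1417602_at 0.24 (SE 0.17).

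Per3 (chromosome 4, 150997018 to 151044707), a period gene on which the rhythm depends less, had 4 probe sets past the filter with log2 differences of -0.19 to -0.30 at 3 weeks, none called. Cry1 (chromosome 10, 85131700 to 85185054), a repressor of the loop, had 391, 393 and 314 at 3 weeks, against 351, 267 and 360 (log2 0.17, SE 0.22). At 1 week Cry1 had 548 and 482, against 414 and 387, without overlap (log2 0.35, SE 0.27, limma adjusted p = 0.9996). Cry2 (chromosome 2, 92403646 to 92434085), its partner, differed by 0.01 log2 at 3 weeks (interval -0.39 to 0.41) and -0.06 at 1 week. Nr1d2 (chromosome 14, 18204056 to 18239106), which encodes the repressor REV-ERB beta, had 3826, 4382 and 3742 at 3 weeks, against 4557, 4291 and 4674 (log2 -0.18, SE 0.17). Its second probe set gave the same difference, -0.18, with an SE of 0.48.

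In all, 2 of the 20 member probe sets (2 of 10 genes) were called at 3 weeks, 1 higher and 1 lower, against 3.93% of all 27044 probe sets tested, 3.28% higher and 0.651% lower. The members' median log2 difference was -0.19, beside -0.01 over all probe sets. The pools did not overlap at 1 member probe set that was higher and 3 that were lower, where 14.9% and 12.8% of all probe sets were so. At 1 week none was called, against 0.237% of all, with 4 higher and 4 lower without overlap (15.7% and 12.9% of all). In A-CREB mice limma called 0 of 20, as it did 0% of all probe sets, although 1 of 20 members and 1171 of 27044 had an unadjusted p under 0.05. For the difference between the 3 week and 1 week effects 0 members were called (0.0037% of all), with 2 at an unadjusted p under 0.05. Since Nfil3 was named as risen in an earlier look at these data, the count of members is a description.

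**Figure D2:**
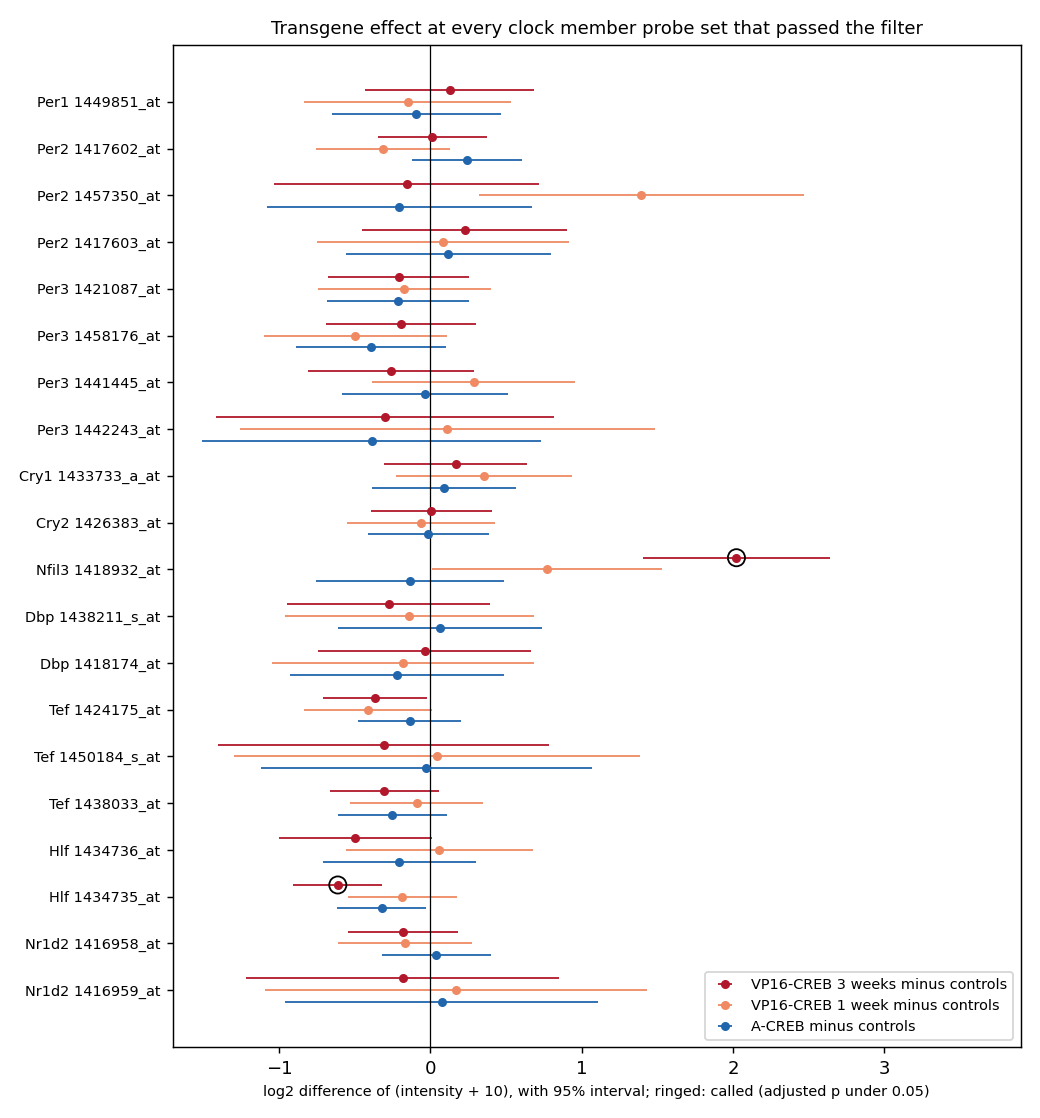
Log2 difference of intensity plus 10 (horizontal axis) with its 95% interval for the 20 member probe sets, for VP16-CREB at 3 weeks, VP16-CREB at 1 week and A-CREB, each minus control littermates; rings mark called probe sets. Nfil3 at 2.02 and Hlf at -0.61, both at 3 weeks, are the ringed points.

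Among 3 lists of other clock genes, only that of output and D-box target genes held a call at 3 weeks. None of 7 loop activators and receptors measured was called (median log2 -0.31), with Clock at -0.31 (SE 0.22) and Rora, a receptor that activates Arntl, at -0.04 (SE 0.23). Arntl itself, named after its values were seen, was at -0.47 (SE 0.14, limma adjusted p = 0.0888). None of 10 kinases, ubiquitin ligase subunits and other regulators was called (median -0.17), with Fbxw11, a ligase subunit, at -0.19 and Nono, a PER-associated protein gene, at -0.11. Of 6 output and D-box target genes 1 was called, Tspan4, a tetraspanin gene, which rose by 1.04 log2 (SE 0.23, adjusted p = 0.0186). Pdxk, the pyridoxal kinase gene that PAR bZIP factors are known to drive in brain, also named after its values were seen, was at -0.01 (SE 0.19). At 1 week and in A-CREB mice no member of these 3 lists was called.

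In a list of 15 genes known as CRE-driven, 8 were called higher at 3 weeks and none lower (median log2 1.06). Over all probe sets 3.28% were called higher. The largest rises were Pdyn, the prodynorphin gene (3.03), Inhba, an activin subunit gene (1.78), the AP-1 gene Fosb (1.53) and Fos (1.46). Not called were Nr4a1 (-0.30), Rgs2 (0.05), Sst (0.18), Scg2 (0.26), Dusp1 (0.30), Nr4a2 (0.41) and Sik1 (0.46). Whether Nfil3 rose through a CRE was not tested. At 1 week Pdyn alone was called (2.73, limma adjusted p = 0.000138). In A-CREB mice none of the 15 was called (median -0.10, Sst at -0.08 and Scg2 at -0.17). Of 8 other bZIP factor genes 3 rose at 3 weeks: Cebpa by 1.15, Crem, a CREB-related factor gene, by 1.06 and Ddit3, a stress factor gene, by 0.60. Crem, at the same probe set, is also among the 8 risen genes of the CRE-driven list. Crem and Ddit3 each have another probe set past the filter, which was not called at 3 weeks. As a check of the transgene, Creb1 probe set 1421582_a_at rose 19.1-fold at 3 weeks (1167 ± 87.7 against 53.6 ± 18.7, SD, n = 3 each), and 1452529_a_at rose 4.82-fold (487 ± 126 against 90.8 ± 5.09), while 3 other Creb1 probe sets were not called. Whether both read the transgene was not tested.

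Markers of glia and granule neurons moved beside Nfil3 and Hlf. The summed intensity of 10 microglia and macrophage markers was 46630 to 54310 in VP16-CREB pools at 3 weeks, against 12730 to 12900 in controls, and 9 of the 10 rose. At 1 week it was 21840 to 25520, against 12900 to 16520, and 1 of the 10 rose, the lysosomal marker Cd68 (1.84 log2). In A-CREB mice it was 15950 to 20680, against 13620 to 16010 (0 of 10). Of 8 T and NK lymphocyte markers 1, Cd8a, passed the filter and was not called, with sums of 344 to 413 against 216 to 250 at 3 weeks. Of 5 astrocyte markers 3 rose at 3 weeks, with sums of 27960 to 34210 against 11020 to 13120. At 1 week the astrocyte sums were 18970 to 24010 against 12720 to 13040, and Gfap, an intermediate filament gene, rose by 1.80 log2 (limma adjusted p = 0.0229). The sum of 6 dentate granule neuron markers was 1217 to 1506 at 3 weeks, against 3629 to 3892 in controls, and 5 of 6 fell. At 1 week that sum was 3263 to 3430, against 4396 to 4675. In A-CREB mice it was 2359 to 2994, against 2714 to 4325. Beside these marker counts, 3.28% of all probe sets were called higher and 0.651% lower at 3 weeks. At 1 week 0.237% were called in either direction. In whole hippocampus fewer cells of a type and less RNA per cell cannot be told apart, and the part of these cells in the differences of Nfil3 and Hlf was not tested. The hippocampal markers Neurod6 (3238 to 5347) and Camk2a (5545 to 10830) were present on all 16 arrays. Of 5 genes listed for suprachiasmatic or hypothalamic tissue 4 passed the filter, Vip (1084 to 2434), Oxt (185 to 347), Hcrt (96.1 to 202) and Pmch (79.5 to 137). Avp did not (9.36 to 70.3). None of those 4 was called in a transgene comparison. Hcrt and Pmch had median intensities of 121 and 98.8, beside a median of all values of 99.1. Passing the filter does not show that such tissue was present, and this was not tested.

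**Figure D3:**
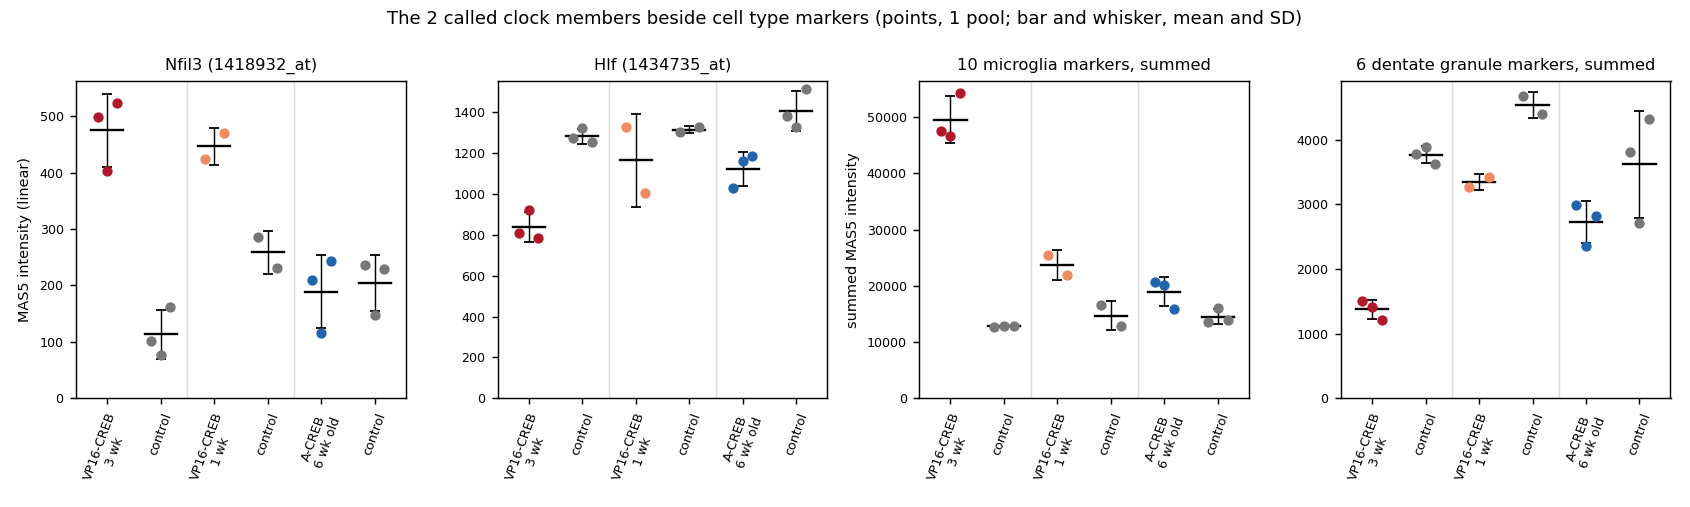
Intensity of Nfil3 and Hlf (1434735_at) and summed intensity of 10 microglia and macrophage and 6 dentate granule markers (vertical axes, linear) in each pool; bars are means and whiskers SD. At 3 weeks Nfil3 and the microglia sum lie above their controls in every VP16-CREB pool, and Hlf and the dentate sum below them.

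By likeness of profile, measured as Pearson correlation over 16 arrays of log2 values minus the mean of each cohort's controls, the genes nearest to Nfil3 were Cxcl16 (0.96), H2-Ab1 (0.96), Atf3 (0.96), Ostf1 (0.96) and Cd44 (0.95). The chemokine gene Cxcl16, the MHC class II gene H2-Ab1, the stress-induced bZIP gene Atf3 and the adhesion receptor gene Cd44 had log2 differences of 3.57, 4.90, 3.92 and 3.02 at 3 weeks. At 1 week they had 1.504, 1.78, 2.25 and 1.36, none of them called there. The arrays share their groups, so likeness mostly restates the difference between groups.

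Wild-type controls of the cohorts differed at some probe sets of Per2, Per3 and Tef, and Per1 was not called (0.52 log2, limma adjusted p = 0.2). The controls of the 3 week VP16-CREB cohort had 6 member probe sets called higher than the A-CREB controls of the same age and 0 lower, where 17.5% of all probe sets were called and 13.9% were higher. All 3 Per2 probe sets were among them, from 0.70 to 1.52 log2, but 2 of these calls were lost under each other scaling. With arrays centred on their median, 1417602_at stood at 0.17 (adjusted p = 0.47) and 1417603_at at 0.61 (adjusted p = 0.0974). With quantile normalization, 1457350_at stood at 1.13 (adjusted p = 0.082) and 1417603_at at 0.58 (adjusted p = 0.209). Per3 at 1458176_at was 410, 385 and 349, against 79.2, 82.0 and 88.8 (log2 2.07, SE 0.23, limma adjusted p = 3.08e-05), and at 1441445_at 271, 377 and 236, against 65.4, 60.5 and 98.7 (log2 1.85). Yet Per3 at 1421087_at was 228, 266 and 224, against 213, 158 and 212, and was not called (log2 0.30, SE 0.22). Tef split likewise, with 1438033_at at 1.09 log2 (adjusted p = 0.00037) and the brightest, 1424175_at, at -0.04. Probe sets of 1 gene thus gave different answers between cohorts, and the parts of the transcript they read were not examined.

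Against the 1 week controls, which were 3 weeks old, the 3 week controls had 4 member probe sets called higher and Nfil3 lower (18% of all probe sets called, 13.7% higher). The higher ones were Per2 at 1457350_at (2.86 log2), the same 2 of Per3 (1.97 and 1.87) and the same of Tef (1.42). Age, dox schedule and array cohort cannot be told apart here. The level of whole arrays also moved: the 6 arrays of the 3 week cohort had medians of 119 to 129, against 75.0 to 93.2 for the other 10. With every array centred on its median, the median of all probe sets shifted to -0.48 log2 in each of these comparisons. Members then split into 4 higher and 6 lower against the A-CREB controls, and 4 higher and 5 lower against the 1 week controls. Of all 27044 probe sets, 14233 and 12700 were called in these 2 comparisons with that centring. Only 18.1% and 19.0% of those calls were higher, so calls of lower members were common to the whole array. Per3 at 1458176_at stayed higher under that centring (1.54 and 1.42). Nfil3 was called lower in both comparisons (-1.35 and -1.72), although as deposited it was not called against the A-CREB controls; quantile normalization gave that call too (-1.22, adjusted p = 0.015). Tef at 1424175_at, at -0.04 and 0.0028 as deposited, became called lower (-0.57 and -0.54).

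**Figure D4:**
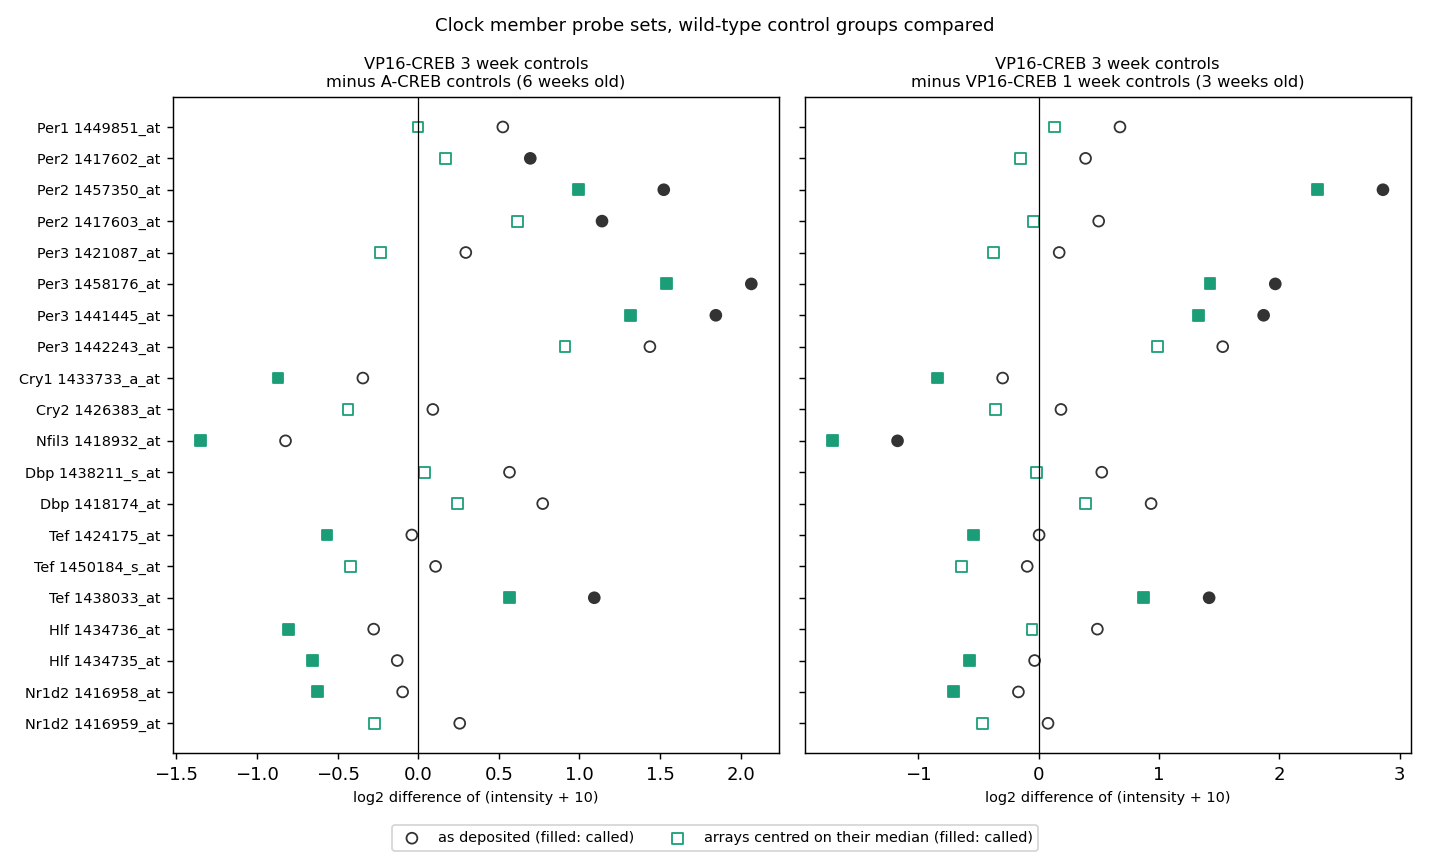
Log2 difference of intensity plus 10 (horizontal axis) between wild-type control groups at the 20 member probe sets, as deposited (circles) and with arrays centred on their median (squares); filled symbols are called. The 2 Per3 probe sets 1458176_at and 1441445_at lie to the right of 0 under both scalings, and Nfil3 to the left.

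Within the A-CREB cohort, pools that share a number in their label resembled each other at some clock genes. Per1 was 521, 346 and 584 in A-CREB replicates 1, 2 and 3, and 504, 334 and 756 in control replicates 1, 2 and 3. Nr1d2 at 1416959_at ran the other way, at 172, 541 and 136 in A-CREB and 227, 447 and 106 in control replicates. Tef at 1450184_s_at was 428, 733 and 132, and 329, 667 and 202. Replicate 2 was thus low for Per1 and high at these probe sets of Nr1d2 and Tef in both genotypes. At the brightest Tef probe set, 1424175_at, this did not hold. There replicate 2 was the lowest control pool (3424) and lay between the other A-CREB pools (3205 and 3741). The ratio of the 3' to the 5' actin probe set, a measure of RNA integrity, was 1.52, 1.40 and 2.48 in A-CREB replicates and 1.98, 1.37 and 1.65 in control replicates, and replicate 3 of both had the most 18S rRNA signal (3288 in A-CREB and 1735 in control). Replicate 1 of both groups had low Xist (63.4 and 34.5), as pools of males have. Over all 16 arrays, as deviations from group means, the log2 actin ratio had a Pearson correlation of -0.85 with Tef at 1450184_s_at, 0.59 with Per1 and -0.50 with Nr1d2 at 1416959_at, given as a description. Values were also -0.65 with Per3 at 1442243_at, -0.59 with Dbp at 1418174_at and 0.52 with Cry1. The brighter probe sets of Tef (1424175_at, 0.13) and Nr1d2 (1416958_at, 0.08) lay near 0, so this differed by probe set. The part of sex in these values was not tested. Leaving out both pools numbered 2, or both numbered 3, an alternative chosen after seeing the data, gave 0 member calls for A-CREB in each case. The full A-CREB comparison already called 0 of 27044 probe sets, so this cannot show whether the pool pattern matters. Without the pools numbered 3 the Nfil3 effect of VP16-CREB at 3 weeks minus that of A-CREB came to 2.26 log2 and just missed the threshold (adjusted p = 0.0501).

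**Figure D5:**
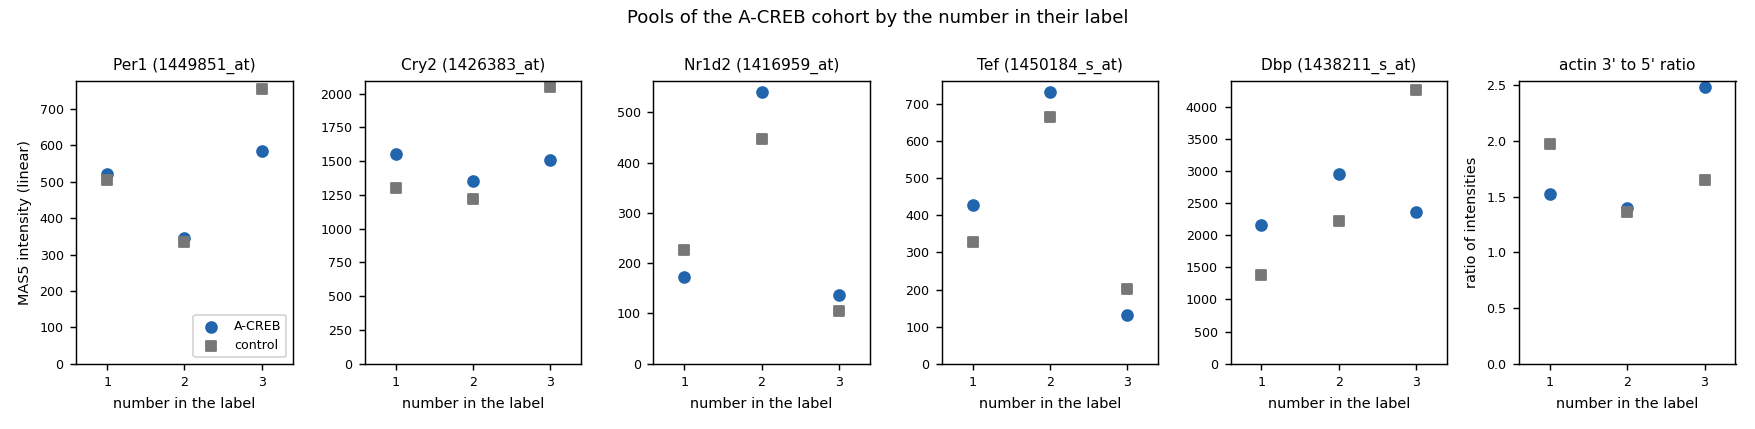
Intensity (linear, vertical axes) of Per1, Cry2, Nr1d2, Tef and Dbp and the actin 3' to 5' ratio in the 6 pools of the A-CREB cohort, by the replicate number in their label (horizontal axis); circles are A-CREB and squares control. For Per1 and the plotted probe sets of Nr1d2 (1416959_at) and Tef (1450184_s_at), replicate 2 stands on the same side in both genotypes.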

How the data were processed

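The authors deposited MAS5 intensity on a linear scale for 16 arrays (MAS5 per the submitters' processing notes, version not given in the sources used here). In the deposited intensities the mean after leaving out 2% at each end was 500 on every array. Precision is limited by the number of arrays. P-values set the difference between groups against the spread between pools of 3 to 4 mice, not against the spread between single mice. Values were taken as log2 of intensity plus a pseudocount of 10. Probe sets above the median of all values (99.1) on at least 2 arrays were kept (27044, 60.05%). All arrays entered 1 limma fit with a coefficient per group (10 residual and 3.44 prior degrees of freedom), with Benjamini-Hochberg adjustment over all 27044 probe sets and a call at an adjusted p under 0.05. Folds are on the log2 scale of intensity plus 10, which understates changes of dim probe sets. Software was R 4.3.3, limma 3.58.1, data.table (version 1.17.8), Python 3.11.15 and matplotlib 3.10.9. The fit was tested on simulated data.

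The members, lists and tests were chosen with earlier results of these data known. Named genes are all members, up to 4 called genes of each list by size of difference (or the 2 of highest mean), Creb1, Crem, and the 5 genes most like Nfil3 and Dbp. For list counts each gene was represented by its probe set with the highest mean. Probe sets with several symbols (932) or none (9160) were not named. Alternatives were no pseudocount (values below 1 set to 1), a pseudocount of 25, no filter, a filter on the mean, quantile normalization, median centring, only the arrays compared, omission of single arrays, weights per array, a block for the replicate number, 1 probe set per gene, and a robust fit with a variance trend.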

Additional observations from a re-analysis of the deposited data

Results flagged for a closer look

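The effect on Nfil3 differed between the transgenic lines: the log2 difference from controls was 2.16 larger in VP16-CREB mice at 3 weeks than in A-CREB mice (2.02 against -0.14, limma adjusted p = 0.0231), with all 3 VP16-CREB pools above their controls and A-CREB pools that overlapped theirs. The adjusted p was 0.0501 to 0.0845 in 9 of 25 alternatives.

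Per3 probe set 1421086_at did not pass the filter and entered no comparison, yet read 41.8, 43.7 and 41.8 in the VP16-CREB pools at 3 weeks (mean 42.4), against 14.6, 11.3 and 3.04 in controls. Fitted without the filter, over 45037 probe sets, it was called (log2 1.47, SE 0.32, limma adjusted p = 0.0375), while the 4 brighter Per3 probe sets lay at -0.19 to -0.30. In A-CREB mice it read 21.2, 54.6 and 26.2, against 35.8, 22.4 and 18.1, so a level near 42 is also within the reach of dim values on these arrays. No group holds 4 or more pools, so no single pool was tested for standing apart.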

How the results depend on the processing

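The rise of Nfil3 at 3 weeks was called in 17 of 17 alternatives, and Nfil3 was uncalled in all alternatives at 1 week (15; log2 0.62 to 0.91) and in A-CREB mice (19; -0.34 to 0.16). The count of 2 called member probe sets at 3 weeks was 1 with 1 probe set per gene and 1 with the replicate block, 1 to 2 with single arrays left out, and 3 with array weights, which also called Hlf at 1434736_at. For the VP16-CREB effect at 3 weeks minus that of A-CREB, the count of 1 fell to 0 without the filter, with only the arrays compared and without both A-CREB cohort pools numbered 3, and 0 to 1 with single arrays left out. The 6 calls of 3 week against A-CREB controls became 10 with median centring and 1 with 1 probe set per gene, and the 5 against 1 week controls became 9 and 1. In the VP16-CREB cohorts the label numbers showed no steady pairing by deviations from group means. Same-number r was -0.16, -0.23 and 0.22 at 3 weeks and 0.15 at 1 week with 2 pairs. In the A-CREB cohort same-number r was -0.05, 0.41 and 0.27. There r between pools numbered 2 and 3 was -0.37 and -0.33, and other unlike pairs lay at -0.01 to 0.05. Replicate 1 of both groups in that cohort also had low Xist (63.4 and 34.5). The main fit did not pair these pools. A replicate block gave 0 calls over all probe sets for A-CREB, as did the main fit. With the replicate block the number of calls over all probe sets was 859 at 3 weeks (1062 without it), 23 at 1 week (64 without it) and 144 between the lines (240 without it), and ended the call of Hlf (adjusted p = 0.0606). Among all probe sets called, the share higher was 92.2% at 1 week and 80.7% with median centring. For 3 week controls it was 79.3% against A-CREB controls and 76.4% against 1 week controls, which became 56.0% and 55.0% with quantile normalization and 18.1% and 19.0% with median centring (14233 and 12700 calls for 4746 and 4866). The single call between the 3 week and 1 week effects became 23 with quantile normalization. MAS5 values near the pseudocount are noisy, which limits the dim Per2 and Per3 probe sets.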

Other observations

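By Pearson correlation over 16 arrays of log2 values minus the mean of each group, so that differences between groups play no part, the genes nearest to Dbp were Larp6 (0.94), Fcgrt (0.94), Rbck1 (0.94), Vwa5b2 (0.93) and Aldh1l1 (0.92). They were found among all probe sets past the filter, and no other clock gene was among them. Aldh1l1 is an astrocyte marker, and none of the 5 was called in a transgene comparison. The 2 Dbp probe sets correlated at 0.87 with each other in the same way, over the same 16 arrays.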
